A study of Mus musculus with 24 samples.

Results

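The 10 genes described here serve protein folding and the stress response of the endoplasmic reticulum, and they were followed in sorted pancreatic progenitors of mouse embryos whose mothers ate different diets. They were taken by symbol from the table of 40173 genes and not by a threshold on any measured value. The choice was made with earlier results of these data known. Counts of the 10 beside shares of all tested genes therefore describe and do not test. All 10 (Hspa5, Hsp90b1, Pdia4, Dnajc3, Dnajb9, Sdf2l1, Creld2, Herpud1, Edem1 and Xbp1) were found and passed the filter on low counts, which kept 23630 genes. RNA was sequenced from eGFP-positive cells sorted from the pancreas of E15.5 embryos. In this mouse line the Neurog3 (Ngn3) coding sequence was replaced by eGFP, so every sorted cell carried an eGFP allele under the Neurog3 promoter. Cells of male and female embryos were pooled. The libraries titled mutant number 3 on a high-fat diet (HFD), 4 on a low-protein diet (LPD) and 4 on a normal diet (ND), and those titled control number 3 on HFD, 4 on LPD and 3 on ND. Ngn3eGFP/+ dams started their diet at 6 weeks of age, ate it for 2 weeks before mating with Ngn3eGFP/+ sires on control diet, and kept it until collection. The genotype field gives Ngn3eGFP/+ for libraries titled mutant and Ngn3eGFP/eGFP for those titled control. The design text instead describes eGFP/eGFP embryos as holding uncommitted progenitors and eGFP/+ embryos as holding committed endocrine cells. Groups are named by title.

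The endoplasmic reticulum is where secreted and membrane proteins are folded, and pancreatic cells, acinar and endocrine alike, carry a heavy load of them. When unfolded protein builds up, the sensors IRE1, PERK and ATF6 start the unfolded protein response. IRE1 splices Xbp1 RNA so that it encodes an active transcription factor, PERK slows translation and favours ATF4, and ATF6 is cleaved into a transcription factor. Their targets include chaperones, their cofactors and the machinery that sends misfolded proteins to the proteasome. A count per gene does not tell spliced from unspliced Xbp1 RNA, so none of the values below measures the response's activity directly.

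Neurog3 was first read as a check of the labels. It stood at 6.13 to 23.2 CPM (counts scaled to a fixed library total) in the 11 libraries titled mutant and at 99.0 to 276 in the 10 titled control, which matches the titles as the design text reads them, but not the genotype field. Total counts ran from 17922240 to 44688814 per library. The libraries mutant ND 2, mutant ND 3 and control ND 2 stood apart, with 72.2 to 79.38% duplicate reads against 37.74 to 65.52% in the other 18, and with 32.7 to 66.9% of counts on the noncoding RNA Gm26917 against 9.21 to 18.7%. Calls of the 10 genes that rest on ND are therefore given with and without these 3. Of the 7 ND libraries 5 are numbered 25 or higher in the labels, against 0 of the 6 HFD and 0 of the 8 LPD libraries, so that diet and library number run together. The labels do not say whether replicates are separate litters, and p-values measure only the spread between libraries. Mutant LPD 1 and 2, and mutant HFD 1 and 2, were closer to each other than any other pair within a group. Their counts differed by a mean chi-square per gene of 3.62 and 4.78, against 15.7 to 167 for the other pairs. Whether these pairs share embryos was not tested, and each library was counted as separate. In sorted bulk samples a higher level in each cell and a larger share of cells that express a gene cannot be told apart.

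Per unit of gene length the 10 genes spanned more than an order of magnitude, with the abundant chaperones on top. Over the 21 libraries the median FPKM was 292 for Hspa5 (BiP, the main Hsp70 chaperone of the endoplasmic reticulum), 149 for Hsp90b1 (GRP94, its Hsp90) and 133 for Pdia4 (a protein disulfide isomerase). It was 127 for Sdf2l1, a partner of the BiP co-chaperones, 98.8 for the transcription factor Xbp1 and 84.7 for Creld2, a secreted protein induced by reticulum stress. Edem1, which marks misfolded glycoproteins for disposal, had a median of 82.2 FPKM. Herpud1 (HERP), a membrane protein of the degradation machinery, had 58.7 FPKM. The BiP co-chaperones Dnajc3 (p58IPK) and Dnajb9 (ERdj4) had 38.7 and 10.8 FPKM. In 20 of the 21 libraries Dnajb9 lay between 5.25 and 18.7 FPKM, and in mutant ND 2 it was 1.09. FPKM is scaled by library total, and 66.9% of the counts of mutant ND 2 were on Gm26917. That scaling lowers the FPKM of its other genes. Among libraries, TMM-scaled CPM (CPM corrected for library composition) varied least for Hspa5, whose highest value was 1.59 times the lowest, and for Pdia4, at 1.65 times. It varied most for Edem1 (5.63 times), Dnajb9 (5.33 times), Herpud1 (3.64 times) and Xbp1 (3.40 times).

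**Figure D1:**
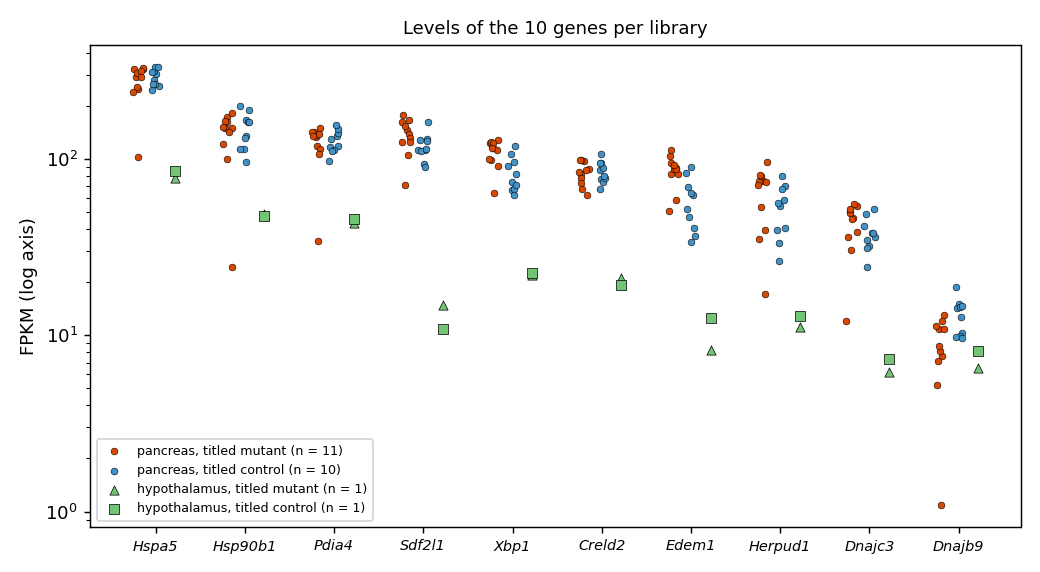
FPKM on a log axis for each of the 10 genes, 1 point per library, for pancreas titled mutant (11 libraries) and control (10 libraries) and for the hypothalamic libraries titled mutant and control (1 each). Hspa5 has the highest median (292 FPKM) and Dnajb9 the lowest (10.8 FPKM), and the single low points of Dnajb9, Hsp90b1 and Pdia4 are mutant ND 2. FPKM is lowered in that library by the 66.9% of its counts on Gm26917. The highest pancreatic value was 8.15 (Hsp90b1) and 4.55 (Pdia4) times the lowest in FPKM, against 2.81 and 1.65 times in TMM-scaled CPM.

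The genes lie on 9 chromosomes of build GRCm38.p6, where Pdia4 (chr6:47796141-47813430) and Edem1 (chr6:108828641-108859356) share chromosome 6. Herpud1 (ENSMUSG00000031770.16) spans chr8:94386438-94395377 and Dnajc3 (ENSMUSG00000022136.8) spans chr14:118937976-118981697, both on the plus strand. Dnajb9 (ENSMUSG00000014905.4) spans chr12:44205559-44210326 on the minus strand, and Xbp1 (ENSMUSG00000020484.19) spans chr11:5520659-5525893 on the plus strand. The antisense RNA Gm15890 overlaps Herpud1 and had 4 to 198 counts per library, against 785 to 7787 for Herpud1 over all 24 libraries. The libraries were strand-specific per the labels' protocols, but the strand setting used in counting is not stated there.

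RefSeq promoters (GRCm38.p6, 250 bases before to 50 after the start) were available for all 10 genes and were searched on both strands for elements that unfolded protein response factors are known to bind. ERSE, the letters CCAAT and CCACG with 9 bases between them, was present in 4 of the 10 (Dnajc3, Hspa5, Hsp90b1 and Creld2) and in 39 of all 32851 promoters (0.119%). ERSE-II, ATTGG and CCACG with 1 base between them, was present in Herpud1 and in 12 of all promoters (0.0365%). UPRE, TGACGTGG, was present in none of the 10 and in 222 of all promoters (0.676%). ERSE and ERSE-II share CCACG, but no stretch below carries both. The stretches of these 5 genes are shown because Herpud1 and Dnajc3, which passed the test together on HFD, carry different elements, and Hspa5, with the same element as Dnajc3, did not pass. Each is written along its gene's strand with 30 bases on both sides of the element, whose matching letters are in capitals, and CGTGG with ATTGG is the ERSE read from the other strand.
Herpud1, ERSE-II, chr8:94386347-94386417, plus strand: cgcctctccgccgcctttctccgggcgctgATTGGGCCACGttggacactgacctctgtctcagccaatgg
Dnajc3, ERSE, chr14:118937797-118937875, plus strand: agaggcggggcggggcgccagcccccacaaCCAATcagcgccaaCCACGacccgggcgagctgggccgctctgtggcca
Hspa5, ERSE, chr2:34771995-34772073, plus strand: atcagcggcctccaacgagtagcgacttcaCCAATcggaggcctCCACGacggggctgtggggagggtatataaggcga
Hsp90b1, first ERSE, chr10:86705608-86705686, minus strand: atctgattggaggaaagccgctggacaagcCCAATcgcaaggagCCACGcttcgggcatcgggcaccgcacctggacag
Hsp90b1, second ERSE, chr10:86705503-86705581, minus strand: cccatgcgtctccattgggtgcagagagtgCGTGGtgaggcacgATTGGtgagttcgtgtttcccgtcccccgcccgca
Creld2, ERSE, chr15:88819490-88819568, plus strand: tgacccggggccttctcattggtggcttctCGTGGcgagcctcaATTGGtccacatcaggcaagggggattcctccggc
The Hspa5 element starts 65 bases before the RefSeq start, the Dnajc3 element 105 bases and the Herpud1 element 52 bases. A match describes these letters and is not a measured binding site. Xbp1, with none of the elements, also had neither CCAAT nor CCACG in its window.

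Maternal HFD was compared with ND, the diet question named in the study's title, first in libraries titled mutant. There 3 of the 10 genes rose and 0 fell, where 0.961% of all tested genes rose. Herpud1 stood at 176, 175 and 233 TMM-scaled CPM in the mutant HFD libraries and at 81.6, 104, 105 and 123 in mutant ND. The HFD libraries were all above the ND libraries, 1.88-fold on the fitted scale (log2 0.91, SE 0.19, adjusted p = 0.0159 by edgeR's quasi-likelihood test over 23630 genes, as for all adjusted p-values below unless another tool is named). Dnajc3, which holds BiP clients and was first known as an inhibitor of the kinase PKR, stood at 279.6, 282 and 267 CPM in mutant HFD and at 163, 162, 200.1 and 197 in mutant ND. Again the groups did not overlap (log2 0.61, SE 0.12, adjusted p = 0.0131 by edgeR). Dnajb9, which hands misfolded proteins to BiP and restrains IRE1, stood at 33.7, 30.3 and 28.7 CPM in mutant HFD and at 17.2, 7.27, 17 and 18 in mutant ND. It was 2.05-fold higher, with no overlap (log2 1.04, SE 0.24, adjusted p = 0.0257 by edgeR).

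The chaperones themselves moved less in titled mutant. Hspa5 stood at 1379.7, 1357 and 1433 CPM in mutant HFD and at 927, 1132, 1288 and 1216 in mutant ND (log2 0.29, SE 0.13, adjusted p = 0.204 by edgeR). Hsp90b1 (log2 0.52, SE 0.21, adjusted p = 0.150) and Pdia4 (log2 0.31, SE 0.14, adjusted p = 0.200) likewise had values above ND in every HFD library without passing edgeR's test. Every mutant HFD library was above every mutant ND library in 6 of the 10 genes and in 11.3% of all tested genes. Xbp1 (log2 0.05, SE 0.19) and Edem1 (log2 0.06, SE 0.28) showed differences smaller than their standard errors, and their ND libraries were scattered. Edem1 ran from 637 to 719.6 CPM in mutant HFD and from 288 to 994 in mutant ND. Sdf2l1 (log2 0.21, SE 0.20) and Creld2 (log2 -0.17, SE 0.23) did not pass. The median log2 fold change of the 10 genes was 0.30, and that of all tested genes was -0.01.

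These mutant calls were close to the threshold. Without mutant ND 2 and ND 3, and control ND 2, Dnajc3 passed (log2 0.63, adjusted p = 0.0269 by edgeR), while Herpud1 (log2 0.95, adjusted p = 0.0618) and Dnajb9 (log2 0.83, adjusted p = 0.0729) did not. Leaving out mutant HFD 1, 2 or 3 took away the Dnajc3 call (log2 0.60, 0.60 and 0.64, edgeR adjusted p = 0.0644, 0.0710 and 0.0658) and the Dnajb9 call (adjusted p = 0.103, 0.0949 and 0.104, at log2 0.97 to 1.09). The Herpud1 call was lost without mutant HFD 2 (log2 0.99, adjusted p = 0.0649) and without mutant HFD 3 (log2 0.76, adjusted p = 0.117). All 3 were lost when the 7 compared libraries were fitted alone (Herpud1 log2 0.91, edgeR adjusted p = 0.202, Dnajc3 log2 0.61, 0.202, and Dnajb9 0.246), a fit in which 0 of all 20394 tested genes passed. All 3 were also lost with a term that sets libraries numbered 25 and up apart (Herpud1 log2 1.16, edgeR adjusted p = 0.0666, Dnajc3 log2 0.73, 0.0666, and Dnajb9 log2 1.13, 0.174). Without the 3 libraries of many duplicates Xbp1 was at log2 0.39 and Edem1 at 0.64, neither past the test.

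In titled control, Herpud1 and Dnajc3 rose on HFD. There 2 of the 10 genes rose and 0 fell, where 3.10% of all tested genes rose. Herpud1 stood at 156, 136 and 186 CPM in control HFD and at 68.3, 76.7 and 64.0 in control ND. It was 2.28-fold higher (log2 1.19, SE 0.20, adjusted p = 0.00360 by edgeR), and every HFD library was above every ND library. Dnajc3 stood at 239, 229.7 and 213 CPM in control HFD and at 138, 158 and 137 in control ND (log2 0.65, SE 0.13, adjusted p = 0.00731 by edgeR). Herpud1 kept its call when any of the 6 libraries was left out. Dnajc3 lost it without control HFD 1 (log2 0.62, adjusted p = 0.0521) and without control ND 2 (log2 0.62, adjusted p = 0.0651 by edgeR). Without the 3 libraries of many duplicates both passed (Herpud1 log2 1.14 and Dnajc3 log2 0.58, each at adjusted p = 0.0283 by edgeR). Limma on log2(FPKM + 1) called neither (Herpud1 log2 1.11, adjusted p = 0.0611, and Dnajc3 log2 0.59, adjusted p = 0.364). With the library of mixed genotype taken as control ND, Herpud1 lost its call (log2 0.79, adjusted p = 0.0936 by edgeR) and Dnajc3 kept it. With the library-number term both passed as well (Herpud1 log2 1.40, adjusted p = 0.00785, and Dnajc3 log2 0.76, adjusted p = 0.0197 by edgeR). That term takes its offset from the ND libraries alone, where only control ND 4 and mutant ND 1 are numbered under 25.

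Xbp1 and Edem1, its target in the disposal of glycoproteins, were also higher in every HFD library of titled control than in every ND library. Xbp1 stood at 330.1, 332 and 312 CPM in control HFD and at 225, 188 and 182 in control ND (log2 0.71, SE 0.20, adjusted p = 0.0527 by edgeR). Edem1 stood at 510, 496 and 449 CPM in control HFD and at 288, 246 and 181 in control ND (log2 1.03, SE 0.31, adjusted p = 0.0613 by edgeR). Neither passed. Without the 3 libraries of many duplicates both passed (Xbp1 log2 0.77, adjusted p = 0.0350, and Edem1 log2 1.15, adjusted p = 0.0432 by edgeR), and DESeq2 also called both (Xbp1 log2 0.65, adjusted p = 0.0312, and Edem1 log2 0.96, adjusted p = 0.0277). The library-number term gave a call for both (Xbp1 log2 1.03, adjusted p = 0.0284, and Edem1 log2 1.70, adjusted p = 0.00785) and for Sdf2l1 (log2 0.88, adjusted p = 0.0383 by edgeR). Dnajb9 stood at 35.3, 32.1 and 32.3 CPM in control HFD and at 27.0, 38.8 and 21.6 in control ND, with overlap (log2 0.19, SE 0.25). The other genes, Hspa5 (log2 0.21), Hsp90b1 (0.30), Pdia4 (0.21), Sdf2l1 (0.36) and Creld2 (-0.06), did not pass, at standard errors of 0.14 to 0.25. The median log2 fold change of the 10 genes was 0.33, against -0.01 for all tested genes.

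**Figure D2:**
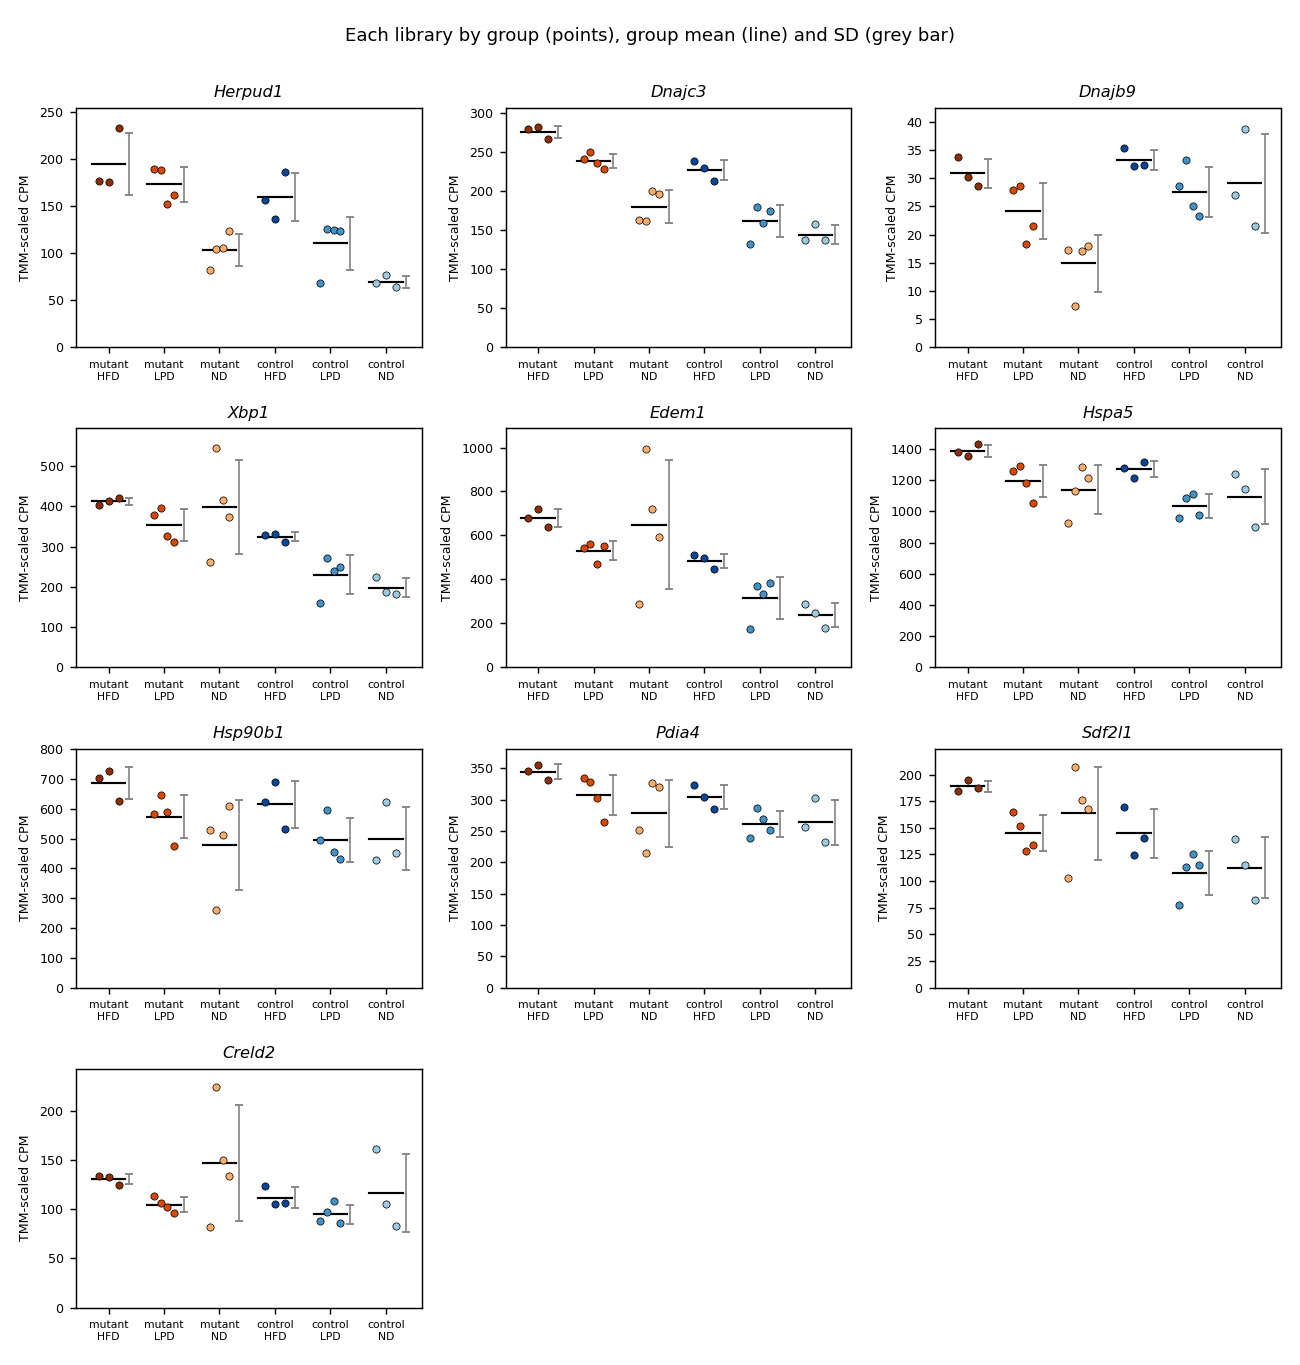
TMM-scaled CPM of each gene by group, with 1 point per library, the group mean as a line and the SD as a grey bar (3 or 4 libraries per group, axes from 0). In Herpud1 and Dnajc3 the HFD libraries lie above the ND libraries of the same title, and the mutant ND libraries are spread widely in Edem1 (288 to 994 CPM) and Creld2 (81.5 to 224 CPM).

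The HFD changes of the 2 titles were set against each other in an interaction term. For 0 of the 10 genes, and for 0% of all tested genes, did the difference pass. The largest differences, mutant minus control, were those of Edem1 (log2 -0.96, SE 0.42), Dnajb9 (log2 0.85, SE 0.35) and Xbp1 (log2 -0.66, SE 0.28), each at adjusted p = 0.663 or 0.664 by edgeR. At an unadjusted p under 0.05 these 3 genes were counted, as were 7.10% of all tested genes, and DESeq2 and limma on FPKM called 0 of the 10. For Herpud1 the 95% interval of the difference ran from -0.82 to 0.26, and for Dnajc3 from -0.38 to 0.30.

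Acinar and dissociation genes moved with the HFD result. The summed level of 12 acinar markers was 34719 to 36759.9 CPM in mutant HFD against 13894 to 25617 in mutant ND, and 23912 to 29524 in control HFD against 6977 to 8936 in control ND. In titled control 11 of the 12 rose, among them the chymotrypsinogen gene Ctrb1 (log2 1.76, SE 0.32) and the trypsin inhibitor gene Spink1 (log2 1.93, SE 0.28), and in titled mutant 2 of 12 rose, Spink1 and Pnliprp1. None of the 12 was at 0 in any group. The summed level of 8 genes that tissue dissociation induces was 4031 to 5321 CPM in mutant HFD against 2197 to 3127 in mutant ND, and 3422 to 4980.4 in control HFD against 2091 to 2783 in control ND. Mesenchyme markers ran the other way in titled mutant, at 280.1 to 839 CPM on HFD and 1060.4 to 9953 on ND. So did the 12 endocrine markers in titled control, at 2116 to 3585 CPM on HFD and 3843 to 8783 on ND. Of the 12 acinar genes, 1 rose in titled mutant and 10 in titled control without the 3 libraries of many duplicates. The part of these markers in the levels of the 10 genes was not tested.

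**Figure D3:**
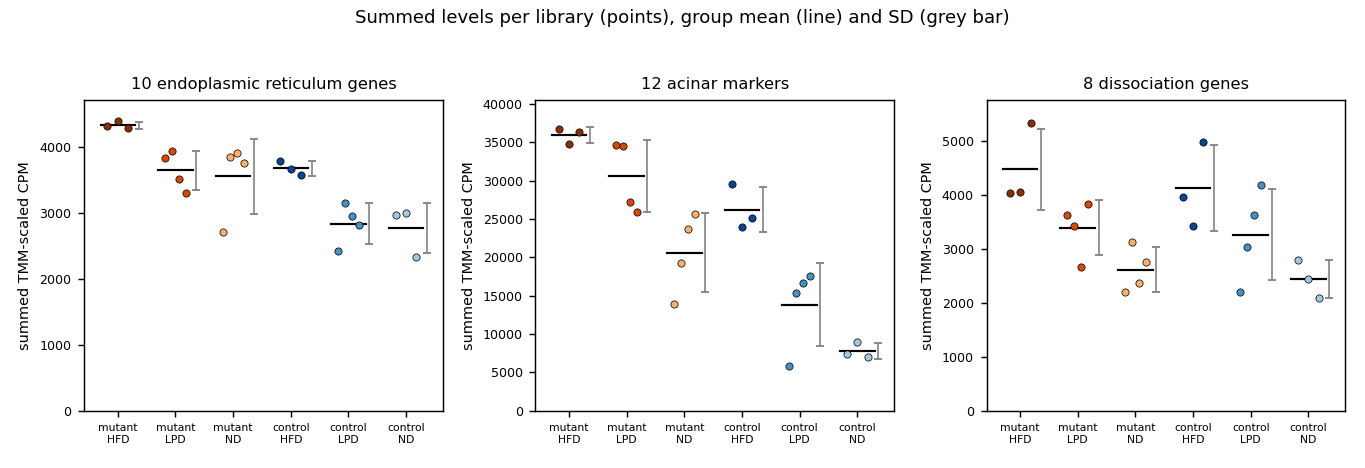
Summed TMM-scaled CPM per library of the 10 endoplasmic reticulum genes, of 12 acinar markers and of 8 dissociation genes, by group (points are libraries, lines are means, grey bars are SD). All 3 sums are higher in every HFD library than in every ND library of the same title, at 34719 to 36759.9 against 13894 to 25617 CPM for the acinar markers in titled mutant.

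Other genes of the same pathways were read from lists of 77 genes that exclude the 10. These lists too were chosen with earlier results of these data known. With HFD 9 of the 77 rose and 0 fell in titled mutant, where 0.961% of all tested genes rose, and 11 rose and 0 fell in titled control, where 3.10% of all tested genes rose. Without the 3 libraries of many duplicates 6 rose in titled mutant and 9 in titled control, where 92 and 488 of all tested genes rose. With the library-number term 0 rose in titled mutant and 9 in titled control, where 6 and 229 of all tested genes rose. In the main fit titled mutant had Atf3 (log2 1.75, SE 0.26) and Ppp1r15a (log2 1.17, SE 0.21) of the ATF4 and CHOP branch. Ppp1r15a encodes GADD34, which restores translation. Edem3, Syvn1 and Ube2j1 of degradation also rose there (log2 0.61, 0.57 and 0.58). The BiP co-chaperone gene Dnajb11 (log2 0.51) and the translocation genes Sec63, Sec61a1 and Ssr1 (log2 0.53, 0.62 and 0.71) completed them. In titled control they were Nupr1 and Atf3 (log2 1.47 and 1.35), the degradation genes Edem2, Selenos and Edem3 (log2 1.15, 0.74 and 0.59), and Creb3l1, a transcription factor of the reticulum membrane (log2 1.32). Ppib, a prolyl isomerase (2.01-fold), P4hb and Prdx4 of disulfide exchange (log2 0.89 and 0.78), Ssr1 (log2 0.94) and Sec61a1 (log2 0.81) rose as well. The genes of the sensors IRE1 (Ern1) and PERK (Eif2ak3), named after their values were seen, did not pass, at log2 0.39 and 0.41 in titled mutant and 0.13 and 0.73 in titled control. Of 12 cytosolic heat shock genes 0 passed in either title. Atf3 also stands in the dissociation list.

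Maternal LPD was then compared with ND. In titled mutant 1 of the 10 genes rose on LPD and 0 fell, where 0.410% of all tested genes rose. Herpud1 stood at 189, 188, 152 and 162 CPM in mutant LPD against 81.6, 104, 105 and 123 in mutant ND, with no overlap (1.67-fold, log2 0.74, SE 0.17, adjusted p = 0.0440 by edgeR). Dnajc3 stood at 241, 249.9, 236 and 229 CPM in mutant LPD, above all mutant ND libraries (log2 0.40, SE 0.11, adjusted p = 0.0619 by edgeR). Dnajb9 stood at 27.9, 28.6, 18.4 and 21.6 CPM in mutant LPD, also above ND (log2 0.68, SE 0.22, adjusted p = 0.0931). Neither passed by edgeR, and DESeq2 called both (Dnajc3 adjusted p = 0.00297 and Dnajb9 adjusted p = 0.0349). Every mutant LPD library was above every mutant ND library in 3 of the 10 genes and in 7.37% of all tested genes. Creld2 was at 96.3 to 114 CPM in mutant LPD and 81.5 to 224 in mutant ND (log2 -0.49, SE 0.21, adjusted p = 0.183). The remaining 6 genes had log2 fold changes between -0.29 (Edem1) and 0.27 (Hsp90b1). Mutant LPD and mutant HFD share the mutant ND libraries as their reference.

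The single LPD call was not stable. Herpud1 lost it without any 1 of the 4 mutant LPD libraries (replicates 1 to 4, log2 0.69, 0.69, 0.79 and 0.77, edgeR adjusted p = 0.145, 0.136, 0.0758 and 0.0635). It also lost it without mutant ND 2 (log2 0.74, adjusted p = 0.0771) and without mutant ND 3 (log2 0.73, adjusted p = 0.0856). Without all 3 libraries of many duplicates the log2 fold change was 0.76 (adjusted p = 0.201 by edgeR), and with the library-number term it was 0.99 (adjusted p = 0.276). Acinar markers stood at 25936 to 34639.9 CPM in mutant LPD against 13894 to 25617 in mutant ND, and their part was not tested. Of the 77 other reticulum genes 2 rose, Ppp1r15a (log2 1.01, SE 0.20) and Sec63 (log2 0.52, SE 0.12), where 0.410% of all tested genes rose. Without the 3 libraries of many duplicates, as with the library-number term, 0 of the 77 and 0 of all tested genes passed.

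In titled control 0 of the 10 genes passed for LPD against ND, as did 0% of all tested genes by edgeR. At an unadjusted p under 0.05 edgeR counted 1, Herpud1, and 6.57% of all tested genes, and DESeq2 and limma on FPKM called 0 of the 10. Herpud1 stood at 68.5, 126, 124 and 123 CPM in control LPD and at 68.3, 76.7 and 64.0 in control ND (log2 0.66, SE 0.19, adjusted p = 0.612). Control LPD 1 lay at the ND level and the other 3 above every ND library. Without control LPD 1 Herpud1 passed, at log2 0.82 (adjusted p = 0.00882 by edgeR). For the other 9 genes the log2 fold change ran from -0.30 (Creld2) to 0.41 (Edem1), and the 95% interval was -0.34 to 0.17 for Hspa5 and -0.29 to 0.26 for Pdia4. The differences between titles in the LPD change passed for 0 of the 10 genes and 0% of all tested genes by edgeR. At an unadjusted p under 0.05 edgeR counted 1, Dnajb9 (mutant minus control log2 0.76, SE 0.33, adjusted p = 0.832), and 5.85% of all tested genes, and DESeq2 and limma called 0 of the 10.

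**Figure D4:**
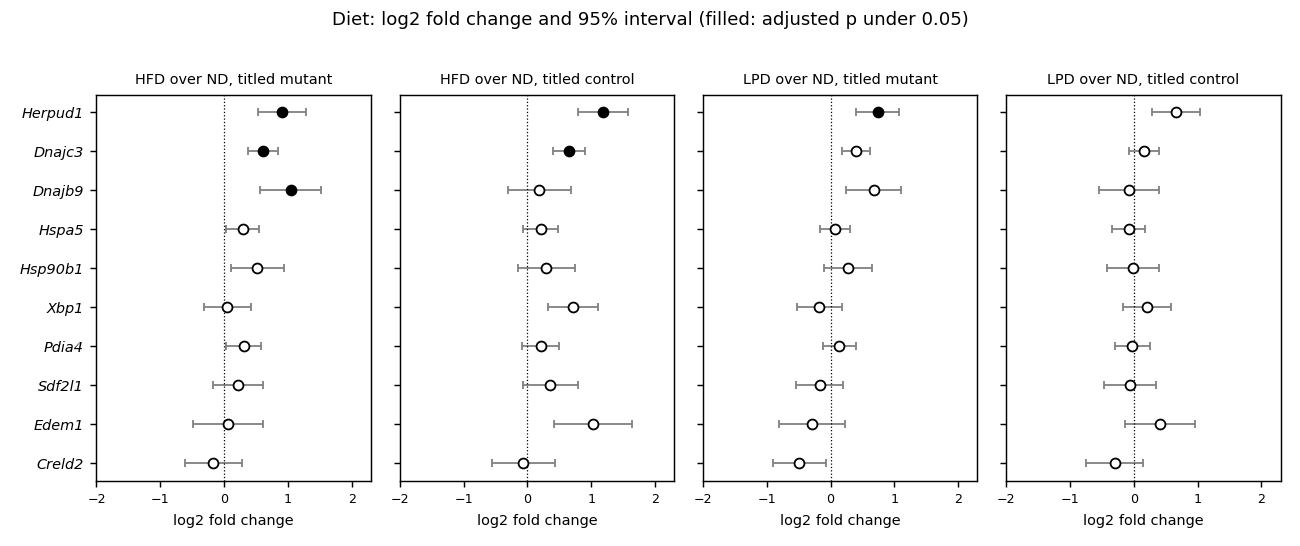
Log2 fold changes of the 10 genes (points) with 95% intervals (lines) for HFD over ND and LPD over ND in titled mutant and titled control, with filled points for an adjusted p under 0.05. Herpud1 is filled in 3 of the 4 panels, at 0.91, 1.19 and 0.74, and Hspa5 in none.

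HFD was also set directly against LPD. In titled mutant 0 of the 10 genes passed, as did 0% of all tested genes, and at an unadjusted p under 0.05 edgeR counted 0 of the 10, with 0 by DESeq2 and by limma on FPKM. Still, all 10 had positive log2 fold changes, from 0.16 (Pdia4) to 0.38 (Sdf2l1), where 44.2% of all tested genes were positive. Dnajc3, Dnajb9, Hspa5, Xbp1, Sdf2l1, Edem1 and Creld2 had every HFD library above every LPD library, as did 6.94% of all tested genes. In titled control 0 passed by edgeR, as did 0% of all tested genes, and at an unadjusted p under 0.05 edgeR counted 6, with 6.19% of all tested genes. These were Herpud1 (log2 0.53, SE 0.19), Dnajc3 (log2 0.49, SE 0.12), Hspa5 (log2 0.30, SE 0.13), Xbp1 (log2 0.50, SE 0.19), Sdf2l1 (log2 0.43, SE 0.20) and Edem1 (log2 0.62, SE 0.28). DESeq2 called 1, Dnajc3 (adjusted p = 0.0203), and limma 0. Acinar markers were again higher on HFD, at 34719 to 36759.9 CPM against 25936 to 34639.9 on LPD in titled mutant and 23912 to 29524 against 5776 to 17557 in titled control. The dissociation sum was also higher in titled mutant, at 4031 to 5321 CPM on HFD against 2667 to 3834 on LPD, and it overlapped in titled control, at 3422 to 4980.4 CPM on HFD against 2201 to 4179 on LPD. The part of these markers was not tested.

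Titled mutant was then compared with titled control on each diet, the contrast of uncommitted and committed cells in the design text. On ND 4 of the 10 genes rose in titled mutant, where 13.7% of all tested genes rose, and 1 fell, where 13.3% fell. Edem1 stood at 288, 994, 721 and 595 CPM in mutant ND and at 288, 246 and 181 in control ND. Mutant ND 1 and control ND 2 were level, and the other 3 mutant libraries lay above all controls (2.73-fold, log2 1.45, SE 0.29, adjusted p = 9.38e-04 by edgeR). Xbp1 stood at 263, 546, 415 and 374 CPM in mutant ND and at 225, 188 and 182 in control ND, with no overlap (2.01-fold, log2 1.01, SE 0.19, adjusted p = 5.53e-04 by edgeR). Of all tested genes 11.7% had every mutant ND library above every control ND library. The highest mutant values of both Edem1 and Xbp1 were those of mutant ND 2. Both calls held when any 1 of the 7 libraries was left out, and both held without the 3 libraries of many duplicates, at log2 0.96 for Edem1 (adjusted p = 0.0368) and 0.70 for Xbp1 (adjusted p = 0.0197 by edgeR). Limma on log2(FPKM + 1) called Edem1 (log2 0.79, adjusted p = 0.0154) and not Xbp1 (log2 0.43, adjusted p = 0.110).

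Dnajb9 went the other way on ND. It stood at 17.2, 7.27, 17 and 18 CPM in mutant ND against 27.0, 38.8 and 21.6 in control ND, so all mutant libraries were below all controls (log2 -0.95, SE 0.24, adjusted p = 0.00485 by edgeR). Of all tested genes 14.9% had every mutant ND library below every control ND library. The Dnajb9 value of mutant ND 2 rests on 62 counts, where the other mutant ND libraries had 418 to 576. Without mutant ND 2 the log2 fold change was -0.76 (adjusted p = 0.00432), and without the 3 libraries of many duplicates it was -0.86 (adjusted p = 0.0196 by edgeR). Without control ND 3, the highest control, it was -0.69 (adjusted p = 0.0605). With the compared libraries fitted alone Dnajb9 also lost its call (log2 -1.02, adjusted p = 0.0820 by edgeR).

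Herpud1 and Dnajc3 rose by small amounts on ND. Herpud1 averaged 103 CPM ± 17 in mutant ND and 69.7 ± 6.47 in control ND (SD, n = 4 and n = 3; log2 0.57, SE 0.19, edgeR adjusted p = 0.0296). Dnajc3 averaged 181 ± 20.7 CPM in mutant ND and 145 ± 11.8 in control ND (SD, n = 4 and n = 3; log2 0.32, SE 0.12, edgeR adjusted p = 0.0486). Both calls were lost without the 3 libraries of many duplicates, at log2 0.46 for Herpud1 (adjusted p = 0.248) and 0.21 for Dnajc3 (adjusted p = 0.331 by edgeR). With log2(FPKM + 1) in limma Dnajc3 had the opposite sign, at -0.20 (adjusted p = 0.636), in a scaling where the median of all genes shifted to -0.23. Herpud1 also lost its call without control ND 2 or ND 4 or mutant ND 3 or ND 4 (log2 0.55, 0.46, 0.50 and 0.47). Dnajc3 lost it without any control ND library (log2 0.29, 0.39 and 0.23 without replicates 2, 3 and 4) and without mutant ND 3 or ND 4 (log2 0.21 and 0.28). Sdf2l1 averaged 164 ± 43.8 CPM in mutant ND and 112 ± 28.7 in control ND (SD, n = 4 and n = 3; log2 0.54, SE 0.21, edgeR adjusted p = 0.0592). Without mutant ND 1, and likewise without control ND 2, it passed. Hspa5 (log2 0.06, SE 0.13), Hsp90b1 (log2 -0.07, SE 0.21), Pdia4 (log2 0.08, SE 0.14) and Creld2 (log2 0.34, SE 0.23) did not pass.

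On LPD 3 of the 10 genes rose in titled mutant and 0 fell, where 5.22% of all tested genes rose. Dnajc3 stood at 241, 249.9, 236 and 229 CPM in mutant LPD and at 133, 179.5, 159.6 and 175 in control LPD (log2 0.56, SE 0.11, adjusted p = 9.99e-04 by edgeR). It kept its call when any 1 of the 8 libraries was left out. In a fit without mutant HFD 1, LPD 1 and LPD 2 it lost the call (log2 0.47, adjusted p = 0.0606 by edgeR). Limma on log2(FPKM + 1) did not call it either (log2 0.45, adjusted p = 0.353). Herpud1 stood at 189, 188, 152 and 162 CPM in mutant LPD and at 68.5, 126, 124 and 123 in control LPD (log2 0.64, SE 0.17, adjusted p = 0.0132). Xbp1 stood at 378, 395, 326 and 312 CPM in mutant LPD and at 160.4, 271, 239 and 250 in control LPD (log2 0.62, SE 0.18, adjusted p = 0.0189 by edgeR). In all 3 genes the mutant libraries were above all controls, and control LPD 1 was the lowest library. Of all tested genes 13.6% had every mutant LPD library above every control LPD library. Without control LPD 1 Herpud1 (log2 0.42, adjusted p = 0.0660) and Xbp1 (log2 0.42, adjusted p = 0.125) lost their calls by edgeR. Without mutant LPD 2 they lost them as well (log2 0.55 and 0.50, adjusted p = 0.0635 and 0.0989), and Xbp1 also without mutant LPD 1 (log2 0.58, adjusted p = 0.0541). Edem1 stood at 541, 560.0, 469.6 and 554 CPM in mutant LPD and at 176, 368, 333 and 386 in control LPD, with no overlap and without passing (log2 0.75, SE 0.26, adjusted p = 0.0583). Without control LPD 4 it passed, at adjusted p = 0.0437. Dnajb9 overlapped (log2 -0.19, SE 0.22).

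On HFD 0 of the 10 genes passed between titles, where 5.78% of all tested genes did. At an unadjusted p under 0.05 edgeR counted 1, Dnajc3, and 3302 of all 23630 tested genes, and DESeq2 and limma on FPKM called 0 of the 10. Dnajc3 stood at 279.6, 282 and 267 CPM in mutant HFD and at 239, 229.7 and 213 in control HFD (log2 0.28, SE 0.13, adjusted p = 0.305). Dnajc3, Hspa5, Xbp1, Pdia4, Sdf2l1, Edem1 and Creld2 had no overlap, each higher in titled mutant, as had 17.5% of all tested genes, with log2 fold changes of 0.13 (Hspa5) to 0.49 (Edem1). When the 6 HFD libraries were fitted alone, 3 passed, Edem1 (log2 0.44, adjusted p = 0.00557), Xbp1 (log2 0.30, adjusted p = 0.0128) and Dnajc3 (log2 0.24, adjusted p = 0.0495 by edgeR). That fit called 3590 of all 21045 tested genes (17.1%), where the fit of 21 libraries called 1366. Dnajb9 averaged 30.9 ± 2.54 CPM in mutant HFD and 33.2 ± 1.81 in control HFD (SD, n = 3 each; log2 -0.10, SE 0.25).

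**Figure D5:**
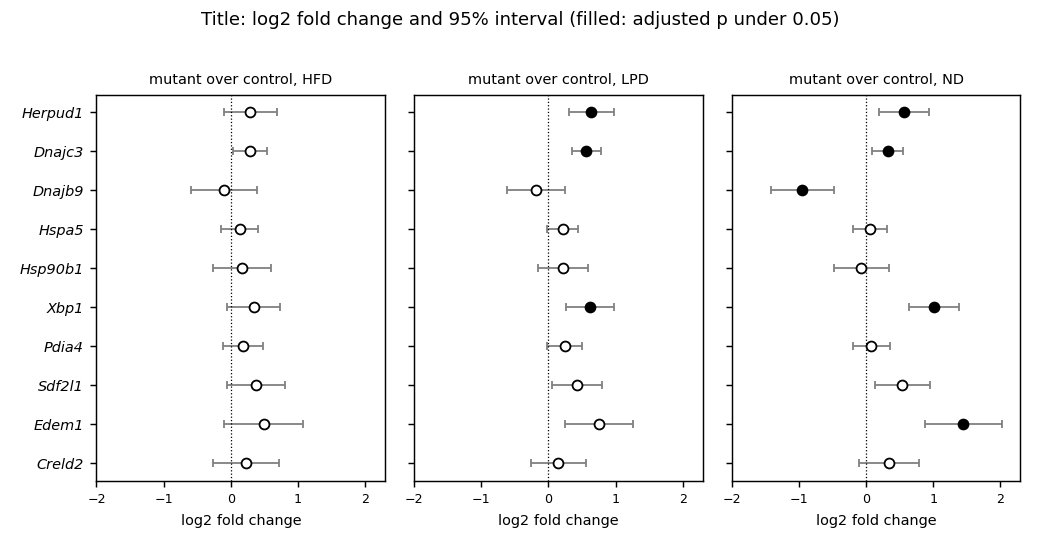
Log2 fold changes of the 10 genes (points) with 95% intervals (lines) for titled mutant over titled control on HFD, LPD and ND, with filled points for an adjusted p under 0.05. On ND Edem1 (1.45) and Xbp1 (1.01) lie right of 0 and Dnajb9 (-0.95) left of it, and on HFD no point is filled.

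The comparison of titles also went with acinar and endocrine markers. The acinar sum was higher in titled mutant on each diet, at 13894 to 25617 CPM against 6977 to 8936 on ND, 25936 to 34639.9 against 5776 to 17557 on LPD and 34719 to 36759.9 against 23912 to 29524 on HFD. The endocrine sum, 12 markers with Neurog3 among them, was lower, at 54.4 to 80.5 CPM in mutant ND against 3843 to 8783 in control ND. It was 45.5 to 427 CPM against 2189 to 4887 on LPD, and 50.6 to 144 against 2116 to 3585 on HFD. Mutant LPD 1 and LPD 2 (415 and 427 CPM) and mutant HFD 1 (144 CPM) had the highest endocrine sums in titled mutant. A set without them is among the alternatives. The sum of 8 trunk and duct markers was higher on ND, at 709.7 to 978 CPM in mutant ND against 466 to 678 in control ND, and overlapped on LPD and HFD. The part of these markers in the differences of the 10 genes was not tested. Control LPD 1, which had the lowest Herpud1, Xbp1, Edem1 and Sdf2l1 of its group, also had the lowest acinar sum of the 21 libraries, 5776 CPM.

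Of the 77 other reticulum genes 21 rose and 8 fell in titled mutant on ND, 13 rose and 2 fell on LPD, and 0 passed on HFD. Of all tested genes 13.7% rose and 13.3% fell on ND, 5.22% rose and 10.4% fell on LPD, and 5.78% passed on HFD. The 8 that fell on ND are 10.4% of the 77 and the 2 that fell on LPD are 2.6%, shares below those of all tested genes. Without the 3 libraries of many duplicates 4 rose and 5 fell on ND, where 1589 of all tested genes rose and 2849 fell. With the 6 HFD libraries fitted alone 18 rose and 1 fell on HFD, where 1208 of all tested genes rose and 2382 fell. On ND the genes that rose include Prdx4 (log2 0.93, SE 0.15), Txndc5 (log2 0.76, SE 0.15) and Ppib (log2 0.83, SE 0.16) of folding, Edem2 (log2 1.17, SE 0.24) of degradation, and Rtcb (log2 0.71, SE 0.14), the ligase that joins spliced Xbp1. The sensor gene Eif2ak3, named after its value was seen, rose (log2 0.73, SE 0.24). Those that fell include the sensor genes Ern1 (log2 -0.39, SE 0.11) and Atf6 (log2 -0.57, SE 0.14), and Ero1lb (log2 -1.46, SE 0.29), the oxidase of disulfide formation that is known for its place in insulin-producing cells. On LPD Prdx4 (log2 0.69), Edem2 (log2 0.78), Rtcb (log2 0.46) and Ssr1 (log2 0.62) rose, and Creld1, the relative of Creld2, fell (log2 -0.77, SE 0.19).

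Over the 6 groups the genes kept different orders. Group means of Hspa5 differed by at most 1.34 times, from 1033 CPM ± 78.2 in control LPD to 1389.9 ± 39.4 in mutant HFD, those of Pdia4 by 1.32 times, and those of Edem1 and Herpud1 by 2.85 and 2.79 times. For 8 of the 10 genes mutant HFD had the highest mean. Dnajc3 there (276 CPM ± 8.16, SD, n = 3) lay apart from the next group, mutant LPD (239 ± 8.79, SD, n = 4). Hspa5 in mutant HFD also lay apart from its next group, control HFD (1270.1 CPM ± 52.2, SD, n = 3). For Dnajb9 the order was control HFD, mutant HFD, control ND, control LPD, mutant LPD and mutant ND, where only the last step, from mutant LPD to mutant ND, was free of overlap. For Creld2 it was mutant ND, mutant HFD, control ND, control HFD, mutant LPD and control LPD, and no neighbours in that order were apart. Hsp90b1, Pdia4 and Sdf2l1 also had no neighbouring groups apart. In Xbp1 and Edem1 the order was mutant HFD, mutant ND, mutant LPD, control HFD, control LPD and control ND, and only control HFD lay apart from its lower neighbour, control LPD.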

How the data were processed

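Per the labels' protocols, trypsin-dissociated, eGFP-sorted cells gave RNA for strand-specific libraries after ribosomal RNA depletion. The submitters' processing notes name featureCounts 2.0.2, STAR 2.7.8a, cutadapt 2.10 and the build GRCm38.p6. The deposited counts are whole numbers per gene, not normalized by the authors, the deposited FPKM values are scaled by the authors for length and library total, and the deposited percent of duplicates is the sequencing core's. Gene names that had become dates (26) were matched back by identifier, and 1 line of totals was left out. Control ND 1, of mixed genotype, and 2 hypothalamic libraries entered no group.

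Counts of 21 libraries in 6 groups were fitted once in edgeR 4.0.16 (R 4.3.3; filterByExpr, TMM, robust quasi-likelihood F-tests), with Benjamini-Hochberg adjustment over 23630 genes and a threshold of 0.05. SE is the absolute log2 fold change divided by the square root of F. The script was tested on simulated data. The 10 genes and all lists were chosen with earlier results of these data known. Named beside them, by rule, are up to 3 genes of smallest adjusted p per list, and the text gives a part of these. Sequences are RefSeq's (GRCm38.p6). Depth was 17922240 to 44688814 counts per library. Alternatives used DESeq2 1.42.0, limma 3.58.1, other filters, terms and library sets. Figures used Python 3.11.15 and matplotlib 3.10.9.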

Additional observations from a re-analysis of the deposited data

Results flagged for a closer look

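In the 30 groups of 4 libraries (10 genes in 3 groups), 2 libraries lay far from the rest of their group. Chance alone flags about 1 in 20 such groups. Herpud1 was lowest in control LPD 1, at 68.5 TMM-scaled CPM, with the other control LPD libraries at 123 to 126, and this gap was 0.959 of the group's range, past Dixon's 95% limit. The same library had the lowest acinar marker sum of its group, 5776 CPM with the others at 15289 to 17557, and the part of these markers was not tested. Dnajb9 was lowest in mutant ND 2, at 7.27 CPM from 62 counts, with the other mutant ND libraries at 17 to 18, a gap of 0.913 of the range. Mutant ND 2 is among the 3 libraries of many duplicates and had the highest mesenchyme sum, 9953 CPM with the other mutant ND libraries at 1060.4 to 4541, and their part was not tested.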

How the results depend on the processing

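Counts below are of the 10 genes past an adjusted p of 0.05. For HFD against ND in titled control (2 genes), DESeq2, the compared libraries alone and the replicate block each gave 4. So did the set without the 3 libraries of many duplicates, and a term separating libraries numbered 25 and up gave 5. Limma on log2(FPKM + 1) gave 1, Edem1, and called neither Herpud1 nor Dnajc3. The mixed library taken as control ND also gave 1, Dnajc3. For HFD against ND in titled mutant (3 genes), limma, the compared libraries alone, the library-number term and the set without mutant HFD 1, LPD 1 and LPD 2 gave 0, and the set without the 3 libraries of many duplicates gave 1. For LPD against ND in titled mutant (1 gene), DESeq2 size factors in edgeR gave 2, DESeq2 gave 3, and limma, the compared libraries alone, the replicate block, the library-number term and both reduced sets gave 0. For mutant against control on ND (5 genes), limma and the compared libraries alone gave 2, and the set without the 3 libraries and the mixed library as control ND gave 3. On LPD (3 genes) the set without mutant HFD 1, LPD 1 and LPD 2 gave 0 and the library-number term gave 5. As 0 of the 8 LPD libraries are numbered 25 or higher, that term cannot adjust this contrast. Its log2 fold changes stayed as in the main fit (Herpud1 0.64, Xbp1 0.62 and Edem1 0.75). Limma gave 1, Edem1, and called neither Dnajc3, Herpud1 nor Xbp1, the 3 of the main fit. On HFD (0 genes) the compared libraries alone gave 3, and for HFD against LPD in titled control (0 genes) DESeq2 gave 1. The cause of these changes was not tested. Counts over all tested genes moved too. For HFD against ND in titled control (924 genes) DESeq2 gave 2248, the compared libraries alone 1792, the replicate block 1513, limma 252 and the library-number term 233. For HFD against ND in titled mutant (676) DESeq2 gave 2373, no filter 418, the set without the 3 libraries 312, the set without mutant HFD 1, LPD 1 and LPD 2 24, the library-number term 12, limma 6 and the compared libraries alone 0. For LPD against ND in titled mutant (249) DESeq2 gave 2302, no filter 124, the replicate block 74, limma 17, and the compared libraries alone, the library-number term and both reduced sets 0. Between titles, the compared libraries alone gave 2279 on ND (6381) and 3590 on HFD (1366), limma gave 841 on HFD and 2375 on LPD (3683), and the set without mutant HFD 1, LPD 1 and LPD 2 gave 1804 on LPD. Where 0 genes passed, DESeq2 gave 7 (LPD against ND, control), 22 and 1 (HFD against LPD, control and mutant) and 11 (HFD interaction). Leaving out 1 library gave 1 to 2 of the 10 genes (HFD, control), 0 to 1 (LPD, control), 0 to 3 (HFD, mutant), 0 to 2 (LPD, mutant), 3 to 7 (ND, mutant against control) and 1 to 4 (LPD, mutant against control). Of 1870 log2 fold changes recomputed, 88 had the other sign. In 87 neither fit called the gene, and the other was Dnajc3 for mutant against control on ND, at -0.20 with limma on FPKM. With that scaling the median of all genes shifted to 0.14 for HFD and 0.21 for LPD against ND in titled mutant, to -0.23 for mutant against control on ND, and to 0.18 and 0.20 in the interactions. The main fit assumed no pairing by replicate number. Over 28 same-numbered pairs the correlation of deviations ran from -0.30 to 0.38, and in 0 of 9 comparisons were all pairs over 0.1. For mutant against control on HFD the pairs of replicates 1, 2 and 3 were at 0.09, 0.19 and 0.38. This rule cannot show that same-numbered libraries share no litter.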

Other observations

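The hypothalamic libraries, 1 titled mutant and 1 titled control, had lower FPKM than the median of the 21 pancreatic libraries for each of the 10 genes. Hspa5 stood at 77.7 FPKM in the mutant and 85.6 in the control hypothalamic library, where the pancreatic median was 292. Sdf2l1 stood at 14.9 in the mutant and 10.8 in the control hypothalamic library, with a pancreatic median of 127. Edem1 stood at 8.29 in the mutant and 12.6 in the control hypothalamic library, with a pancreatic median of 82.2. Dnajb9 was the closest to the pancreas, at 6.54 in the mutant and 8.15 in the control hypothalamic library, with a pancreatic median of 10.8. With 1 library each these values have no replicate check, and duplicate reads were 82.33% in the mutant and 77.5% in the control hypothalamic library. The library of mixed genotype on ND held 110.1 FPKM of Hspa5, 36.7 of Herpud1, 48.4 of Xbp1 and 3.85 of Dnajb9. It had 80.22% duplicate reads and 56.8% of its counts on Gm26917. As FPKM is scaled by library total, these values are not on a level with those of the other libraries.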
